A study of Mus musculus with 9 samples.

Results

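The Runx family is described here across the nuclei of mouse epididymal adipose tissue (AT), a visceral fat depot beside the testis. Its members were taken by symbol and are 4 of the 32285 genes in the count matrices: Runx1, Runx2, Runx3 and Cbfb. Each symbol was listed once. Single nuclei of male C57BL/6J mice were profiled by droplet RNA sequencing in 9 diet groups, with 1 library per group and nuclei of 5 mice pooled in each library. Mice fed chow were 18 (C), 26 (CC) or 39 weeks old (CCC). Obese mice had eaten a high-fat diet (HFD) for 12 weeks (H, aged 18 weeks) or 25 weeks (HH, aged 31 weeks). Weight-loss mice went through the same 12 or 25 weeks of HFD and then had chow for 8 weeks, which made them 26 (HC) or 39 weeks old (HHC). CCH mice were given HFD for the first time for 4 weeks after a life on chow, and HCH mice had 12 weeks of HFD, 8 weeks of chow and 4 more weeks of HFD; both were 30 weeks old. By the methods of the study, the chow of C mice was a low-fat diet, whereas another chow was used during weight loss and in its controls.

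Runx1, Runx2 and Runx3 are transcription factors that bind DNA through a shared Runt domain. Cbfb encodes their common partner, which does not touch DNA itself but strengthens the binding of each. In the body at large, Runx1 is known for blood cell formation, Runx2 for bone and cartilage formation and Runx3 for cytotoxic T cells and sensory neurons. Much of the immune part of fat, including its macrophages and T cells, comes from blood lineages that depend on Runx1.

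On GRCm38, Runx1 (ENSMUSG00000022952) lies on chromosome 16 from 92601466 to 92826149 on the minus strand, and Runx2 (ENSMUSG00000039153) on chromosome 17 from 44495987 to 44814797, also on the minus strand. Runx3 (ENSMUSG00000070691) lies on chromosome 4 from 135120652 to 135177990 on the plus strand, and Cbfb (ENSMUSG00000031885) on chromosome 8 from 105170674 to 105217989 on the plus strand. All are protein coding. The 5′ part of Runx2 overlaps Supt3 on the opposite strand, a gene for a subunit of a histone acetyltransferase complex, and antisense transcripts with their own rows in the matrices overlap Runx1, Runx2 and Runx3. Use of strand in the counting was not stated in the sources used here, so reads of such pairs cannot be told apart with certainty.

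The 3 Runx genes carry sites for their own protein family at their first start. RefSeq (GRCm38.p6) gave 6 promoter windows for the 4 members, from 250 bases before to 50 bases after a start, of which 2 were for Runx1 and 2 for Runx3. The longest run shared by a window of Runx1, Runx2 and Runx3 was 18 bases long and held the 6-base Runx site ACCACA in 2 copies. It is printed here because it shows what these genes have in common in sequence, with the shared run in capitals, 5′ to 3′ on the strand of each gene, at chr16:92826025-92826054 (minus strand), chr17:44814583-44814612 (minus strand) and chr4:135120503-135120532 (plus strand).
Runx1: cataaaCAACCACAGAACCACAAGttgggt
Runx2: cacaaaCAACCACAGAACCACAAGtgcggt
Runx3: gtccctCAACCACAGAACCACAAGgccagg
The run began at base 27 after the start of Runx1 and at base 22 after that of Runx2, and 136 bases before that of Runx3. Of 32851 windows in the table, 4 held the run on either strand, those of the 3 Runx genes and of Gm16225, which overlaps the Runx3 window on the other strand. ACCACA or its complement TGTGGT alone was in 16.8% of all windows. The second windows of Runx1 and Runx3 and the window of Cbfb held neither. The matrices give 1 count per gene, so which start was used was not measured.

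The libraries held 5173 to 14833 barcodes and 22599619 to 66615262 UMIs (unique molecular identifiers, a count of captured RNA molecules) each. In all, 76356 nuclei had 500 to 3000 detected genes and at most 40000 UMIs. A nucleus passed a class with enough of its markers detected, at 2.5 times their free-RNA level or more. That level was their share of UMIs in the library's nuclei led by another class. Where several classes passed, those under 4 times were dropped if another reached it. Macrophage markers did not count against dendritic cell-like nuclei, nor endothelial markers against lymphatic endothelial-like nuclei. Progenitor markers did not count against mesothelial-like, Schwann cell-like and smooth muscle or pericyte-like nuclei. The markers held no member of the family. Nuclei with markers of more than one class, which include doublets, were set aside (2.51% to 8.86% of a library). Any pair of libraries shared 8 to 55 barcodes, at most 0.493% of the smaller one. A level is the UMIs of a gene in a class and library scaled to 1000000 UMIs of that class (CPM), with an exact Poisson 95% interval where one is given. Such intervals cover counting error only, since no group had a second library.

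Runx1 was foremost a gene of immune nuclei. Classes were ordered where at least 6 libraries held at least 50 of their nuclei, which left 10 classes. Its median level over libraries was 1542 CPM in T or NK cell-like nuclei (918 to 1757 over 9 libraries), 1252 CPM in macrophage-like nuclei (1060 to 2160) and 949 CPM in B cell-like nuclei (727 to 1229 over 7 libraries with at least 50 such nuclei). Among these 10, the next class was smooth muscle or pericyte-like, at 151 CPM. Dendritic cell-like nuclei, with at least 50 nuclei in only 5 libraries, held 1020 to 1690 CPM, and mast cell-like nuclei 1249 CPM in HH, the only library with as many. The median was 85.6 CPM in progenitor-like nuclei, 71.7 CPM in adipocyte-like nuclei and 57.3 CPM in endothelial-like nuclei, the lowest of 10 classes. On log2(CPM + 5), macrophage-like exceeded progenitor-like nuclei by 3.63 ± 0.92 (SD, n = 9 libraries, exact paired permutation test, two-sided, p = 0.00391, the smallest that 9 pairs allow, adjusted p = 0.0124). T or NK cell-like and macrophage-like nuclei did not differ beyond their spread (exact permutation p = 0.117, adjusted p = 0.174). Among the 7 remaining non-immune classes, no neighbours in the order passed, except that mesothelial-like lay above endothelial-like by median while the paired difference was the other way, with endothelial-like higher in 8 of 9 libraries (exact permutation p = 0.0195, adjusted p = 0.0352).

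Runx2 had a flatter distribution. Among the 10 ordered classes it was highest in T or NK cell-like nuclei, at a median of 315 CPM (96.2 to 512), above macrophage-like nuclei at 103 CPM (19.02 to 149) in all 9 libraries (exact permutation p = 0.00391, adjusted p = 0.0124). Progenitor-like nuclei followed at 88.7 CPM (18.8 to 174), smooth muscle or pericyte-like at 67.0 CPM and adipocyte-like at 55.1 CPM (19.5 to 121). These neighbours did not differ beyond their spread, and neither did adipocyte-like from macrophage-like nuclei, whose mean difference was −0.18 ± 0.54 (SD, n = 9 libraries, exact permutation p = 0.375, adjusted p = 0.454). Dendritic cell-like nuclei, which were not ordered, held 74.0 to 137 CPM in H, CCH and HCH but 506 CPM in HH and 579 CPM in HHC, above T or NK cell-like nuclei of the same libraries. Endothelial-like nuclei held 32.2 CPM, epithelial-like 16.8 CPM and mesothelial-like, the lowest, 14.95 CPM. Adipocyte-like lay above mesothelial-like nuclei in 9 of 9 libraries, by 1.58 ± 0.43 (SD, exact permutation p = 0.00391, adjusted p = 0.0124).

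Runx3 was at its highest levels in lymphoid nuclei among the 10 classes. T or NK cell-like nuclei held a median of 130 CPM (52.8 to 244) and B cell-like nuclei 21.5 CPM, and these classes differed in all 7 libraries that had both (exact permutation p = 0.0156, adjusted p = 0.0293). Macrophage-like nuclei held 1.89 CPM and adipocyte-like nuclei a median of 0. In adipocyte-like nuclei, Runx3 had 0 UMIs in C, H, HH, CCH and HCH, 1 UMI in CC and in HC, 4 in HHC and 5 in CCC. The limit that a count of 0 allows, 3 UMIs, was 0.257 CPM in C and 4.04 CPM in H, the shallowest class. Dendritic cell-like nuclei, which were not ordered, held 8.88 to 59.9 CPM from 3 to 15 UMIs in the 5 libraries with at least 50 of them, a range that overlaps that of B cell-like nuclei. Levels near those of adipocyte-like nuclei cannot be told apart from free RNA in the droplets.

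Cbfb was present throughout, with the narrowest range. Its median level ran from 227 CPM in T or NK cell-like and 203 CPM in macrophage-like nuclei to 98.6 CPM in epithelial-like and 92.7 CPM in adipocyte-like nuclei. Macrophage-like exceeded adipocyte-like nuclei by 1.16 ± 0.23 on the log2 scale (SD, n = 9 libraries, higher in 9 of 9, exact permutation p = 0.00391, adjusted p = 0.0124). Over the 184 class pairs tested for the 4 genes in one family, 29 of 46 pairs were told apart for Runx1, 26 for Runx2, 21 for Runx3 and 27 for Cbfb.

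**Figure D1:**
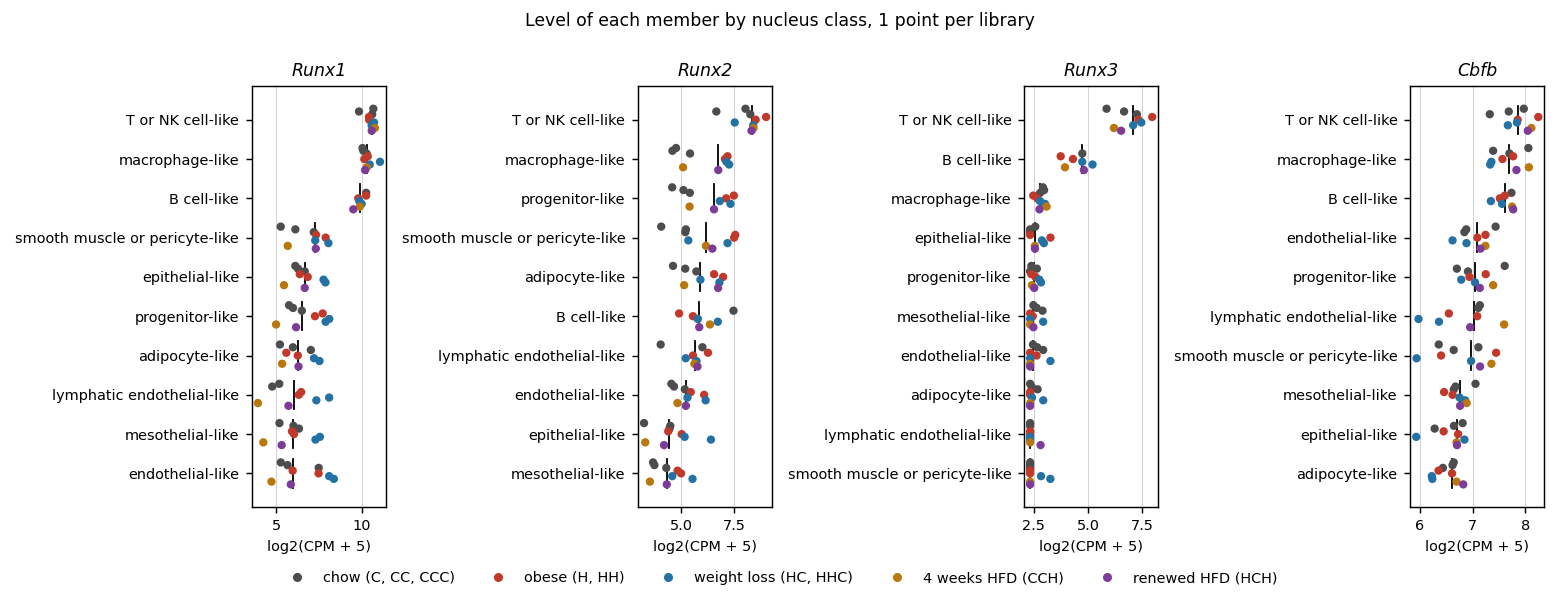
Level of each gene on log2(CPM + 5) by nucleus class, ordered by median, with 1 point per library of at least 50 nuclei, coloured by diet state, and a black bar at the median. Runx1 separates T or NK cell-like, macrophage-like and B cell-like nuclei from the other ordered classes and Runx3 is highest in the lymphoid ones, with macrophage-like nuclei at a median of 1.89 CPM, whereas the classes of Runx2 and Cbfb overlap more.

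The genes most like each member differed. Over 93 sums of a class in a library, and among 8378 genes, the genes whose log2(CPM + 5) followed Runx1 most closely were Dock2 (Pearson r = 0.943), Arhgap30, Ptprc, Lrmp and Myo1f (0.927). Ptprc encodes CD45, the pan-leukocyte surface phosphatase. For Runx3 they were Itgal (0.935), Grap2, Stat4, Il18rap and Tespa1 (0.880), of which Grap2 is one of the markers that gated T or NK cells and Itgal is in a list of Runx targets described below. For Cbfb they were Mbnl1 (0.835), Rap1b, Actr3, Actr2 and Crlf3. Runx2 had no such close companion: Dock10 came first at 0.754, before Il7r, Lyst, Gm26827 and Adgre5. Between members, r was 0.653 for Runx1 with Runx2, 0.703 for Runx1 with Runx3 and 0.504 for Runx2 with Cbfb. Sums of 1 library share its depth and free RNA, and these values are a description.

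Diet was compared in 2 ways. The ratio of 2 libraries has no replicate and is given with an exact conditional 95% interval of counting error. In addition, edgeR's quasi-likelihood test was fitted on all genes with libraries of one diet state as replicates (chow C, CC, CCC; obese H, HH; weight loss HC, HHC), with Benjamini-Hochberg adjustment over all genes tested. Libraries of one state differ in age, duration and, for chow, sequencing set, and nothing marks them as repeats of one condition, so the p-values measure the spread between these pools only. Log2 changes are on the scale of that fit.

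Runx2 in adipocyte-like nuclei was higher in libraries of obese and formerly obese mice than in those of chow-fed and CCH mice. It stood at 19.5 CPM in C (17.0 to 22.2), 31.5 CPM in CC and 47.6 CPM in CCC. The obese libraries held 88.9 CPM in H (68.8 to 113, from 66 UMIs in 161 nuclei) and 121 CPM in HH, and the weight-loss libraries 55.1 CPM in HC and 107 CPM in HHC. CCH held 30.2 CPM and HCH 102 CPM. All chow libraries and CCH thus lay below all libraries that had been through obesity, with CCC and HC closest to each other and their intervals overlapping. The level in H was 4.57 times that in C, in HH 3.85 times that in CC, in HHC 2.25 times that in CCC and in HCH 3.38 times that in CCH, whereas HC was 1.75 times CC. HH and CC were sequenced in different sets and differed in age, at 31 and 26 weeks. The libraries of each other pair shared the set and the age. Runx2 rose in obesity by a log2 change of 1.504 (SE 0.34, edgeR, adjusted p = 0.0264), while 8.65% of 15277 genes rose and 4.61% fell. The call was lost without CC (edgeR, adjusted p = 0.0860), a fit in which 255 of 14667 genes rose and 58 fell. It was also lost without H and without HH, fits that leave 1 obese library. After weight loss the log2 change was 1.30 (SE 0.34, edgeR, adjusted p = 0.298), in a fit that called 0 genes in either direction (0% up and 0% down; edgeR, 1500 genes at an unadjusted p under 0.05; DESeq2 called 106 up and 62 down). Without the filter on low counts that change was called (edgeR, adjusted p = 0.00265).

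Runx1 in adipocyte-like nuclei was low and varied within the chow state. It was at 32.2 CPM in C, 58.0 CPM in CC and 125 CPM in CCC. The obese libraries lay inside that range, at 43.1 CPM in H and 71.7 CPM in HH, and HC (144 CPM) and HHC (180 CPM) above it. CCH held 35.6 CPM and HCH 74.0 CPM. HC was 2.48 times CC and HCH 2.08 times CCH, but no state contrast was called with the filter: the log2 change was −0.46 (SE 0.46, edgeR, adjusted p = 0.503) in obesity, a direction that was not stable, and 1.23 (SE 0.43, edgeR, adjusted p = 0.398) after weight loss. The change after weight loss was called without the filter on low counts (1.22, edgeR, adjusted p = 0.00368). With the sequencing set as a term the change in obesity was 0.50 (edgeR, adjusted p = 0.420), without CCC it was 0.13 (0.810) and with no upper gene limit 0.33 (0.420). The ratio was 1.34 for H to C, 1.24 for HH to CC and 2.23 for HH to C. Cbfb ranged from 69.8 CPM in HC to 108 CPM in HCH without a call, with log2 changes of −0.33 (SE 0.25, edgeR, adjusted p = 0.383) and −0.36 (SE 0.25, edgeR, adjusted p = 0.675). Of the 3 members with at least 10 UMIs in a pair of libraries, 1 differed at least 2-fold between H and C (39.6% of all genes did), 1 between HH and CC (40.0%), 1 between HC and CC (17.6%), 1 between HHC and CCC (19.7%) and 2 between HCH and CCH (20.4%). With so few members, these counts are not set apart from the background.

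In macrophage-like nuclei the family split. Runx2 was at 22.0 CPM in C, 19.02 CPM in CC, 37.8 CPM in CCC and 29.0 CPM in CCH. It was at 141 CPM in H, 129 CPM in HH, 136 CPM in HC, 149 CPM in HHC and 103 CPM in HCH. Libraries with and without past obesity did not overlap. The rise was 2.31 on the log2 scale in obesity (SE 0.25, edgeR, adjusted p = 0.00103; 16.3% of 16690 genes rose and 14.5% fell) and 2.51 after weight loss (SE 0.25, edgeR, adjusted p = 0.00138; 3.98% rose and 2.29% fell). It was called under every alternative that was fitted, including each library left out and the sequencing set as a term.

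Runx1, the most abundant member by UMIs in these nuclei, did not pass in either contrast. It was at 1060 CPM in C, 1095 CPM in CC, 1252 CPM in CCC, 1313 CPM in H, 1141 CPM in HH, 1419 CPM in HHC, 1260 CPM in CCH and 1179 CPM in HCH. HC stood apart from these at 2160 CPM (2114 to 2208), 1.97 times CC. The log2 change was 0.02 in obesity (SE 0.26, edgeR, adjusted p = 0.970) and 0.71 after weight loss (SE 0.26, edgeR, adjusted p = 0.151), which became 0.27 without HC (adjusted p = 0.554). HC also held the highest Runx1 level in progenitor-like, mesothelial-like and lymphatic endothelial-like nuclei. Runx3 was at 0.529 CPM in H and 2.53 CPM in C, from 7 and 10 UMIs, and its log2 change in obesity was −1.57 (SE 0.64, edgeR, adjusted p = 0.0892). Cbfb was at 156 to 263 CPM, with log2 changes of −0.19 (SE 0.25, edgeR, adjusted p = 0.596) and −0.39 (SE 0.25, edgeR, adjusted p = 0.415). Of the 4 members, 2 differed at least 2-fold in H and C (41.5% of genes), 2 in HH and CC (43.0%), 1 in HC and CC (27.5%), 1 in HHC and CCC (25.2%) and 2 in HCH and CCH (23.1%); each of these was Runx2 or Runx3.

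In progenitor-like nuclei, which include adipocyte precursors, both Runx1 and Runx2 rose. The macrophage markers described below were also higher there, at 493 to 565 CPM in chow libraries and 1648 and 2236 CPM in H and HH. HC and HHC held 870 and 1866 CPM. The part of macrophage RNA in the rise of Runx1 was not tested. Runx2 was at 18.8 CPM in C, 29.4 CPM in CC and 37.5 CPM in CCC, against 174 CPM in H, 134 CPM in HH, 108 CPM in HC and 156 CPM in HHC. CCH held 37.1 CPM and HCH 88.7 CPM. As in macrophage-like nuclei, libraries with and without past obesity did not overlap. The rise was 2.28 in obesity (SE 0.27, edgeR, adjusted p = 0.00212; 10.1% of 16826 genes rose and 6.98% fell) and 2.19 after weight loss (SE 0.27, edgeR, adjusted p = 0.00447; 1.09% rose and 0.410% fell). Runx1 was at 48.8 CPM in C, 58.3 CPM in CC and 85.6 CPM in CCC, and at 206 CPM in H, 149 CPM in HH, 270 CPM in HC and 233 CPM in HHC. It was lowest in CCH, at 26.8 CPM, and within the chow range in HCH, at 66.5 CPM. Runx1 rose by 1.29 in obesity (SE 0.26, edgeR, adjusted p = 0.0107) and by 1.95 after weight loss (SE 0.26, edgeR, adjusted p = 0.00591). The call in obesity was lost without H, with a log2 change of 1.04 (edgeR, adjusted p = 0.110).

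Cbfb was at 99.1 CPM in CC, 190 CPM in C and 105 to 163 CPM in the other libraries, with no call (log2 changes of −0.25, SE 0.29, edgeR, adjusted p = 0.575, and −0.30, SE 0.29, edgeR, adjusted p = 0.705). Runx3 had 0 to 15 UMIs per library and no call (adjusted p = 0.866 and 0.398, edgeR). Of the members measured in progenitor-like nuclei, 2 differed at least 2-fold in every comparison, always Runx1 and Runx2. The share of all genes that did so was 32.9% for H and C, 35.0% for HH and CC, 18.5% for HC and CC, 19% for HHC and CCC and 18.0% for HCH and CCH.

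**Figure D2:**
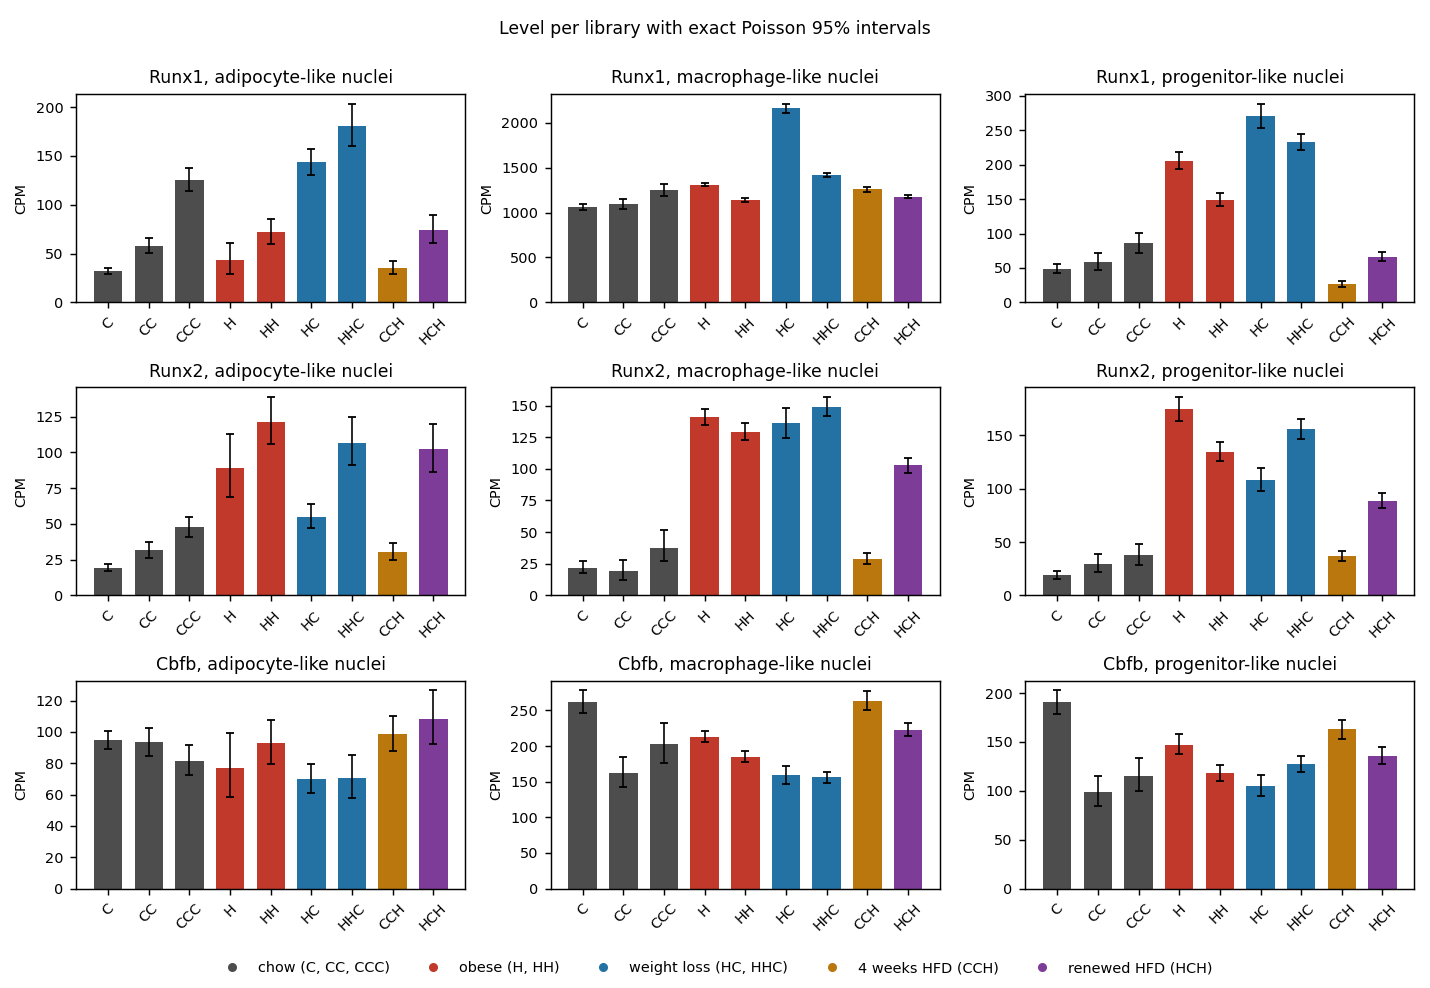
CPM of Runx1, Runx2 and Cbfb (rows) per library in 3 nucleus classes (columns), as bars from 0 with exact Poisson 95% intervals, coloured by diet state. Runx2 is at 18.8 to 47.6 CPM in the chow libraries and CCH of all 3 classes and at 55.1 to 174 CPM in the libraries with past obesity, a split that Cbfb does not show.

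**Figure D3:**
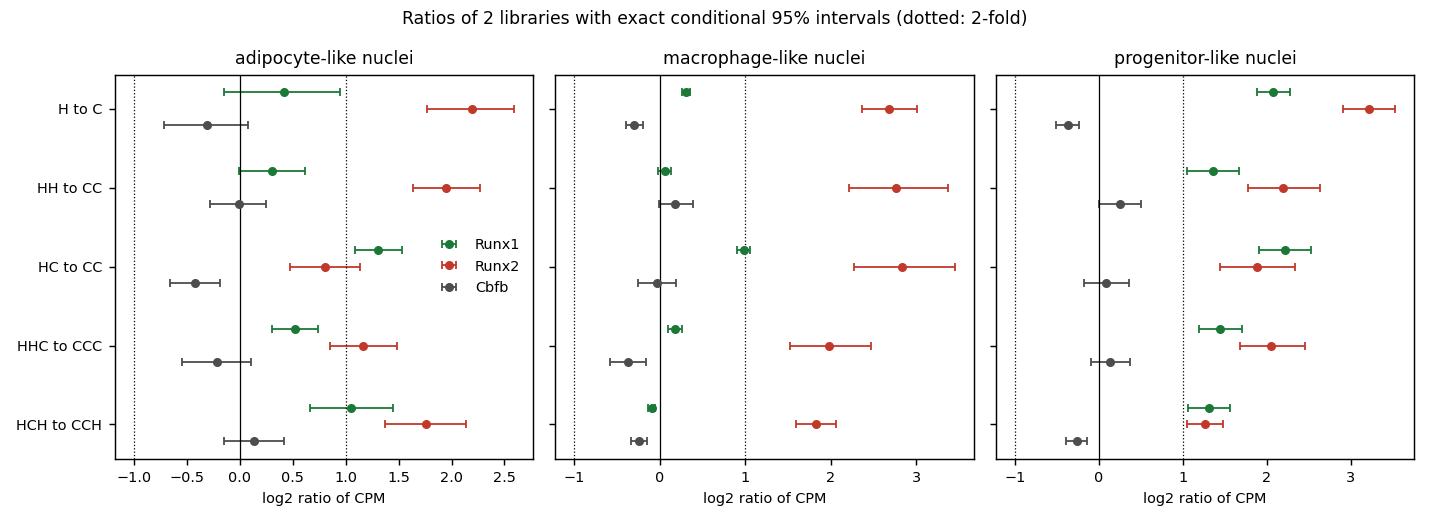
Log2 ratio of CPM in 5 pairs of libraries for Runx1, Runx2 and Cbfb, with exact conditional 95% intervals, in 3 nucleus classes; the solid line marks no difference and dotted lines 2-fold. Runx2 is past 2-fold in every ratio except HC to CC in adipocyte-like nuclei (1.75), and no ratio of Cbfb is.

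HCH and CCH shared the age, the last 4 weeks of HFD and the sequencing set, and differed in the earlier obesity and weight loss of HCH mice. The ratio of Runx2 between them was 3.38 in adipocyte-like (log2 ratio 1.76, interval 1.38 to 2.14), 3.54 in macrophage-like and 2.39 in progenitor-like nuclei. In CCH, Runx2 was 1.55 times C in adipocyte-like, 1.32 times in macrophage-like and 1.97 times in progenitor-like nuclei, with C the younger. Against CC, CCH was at 0.961, 1.52 and 1.26 times. Runx1 in HCH was 2.08 and 2.48 times CCH in adipocyte-like and progenitor-like nuclei and 0.936 times in macrophage-like nuclei. The macrophage markers described below also differed between HCH and CCH, at 918 and 208 CPM in adipocyte-like and 1521 and 420 CPM in progenitor-like nuclei, as did the share of lipid-associated macrophages, at 63.6% and 3.10%, and their part in these ratios was not tested. Each value compares 1 pool of mice with another, and CCH and HCH entered no state contrast.

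The macrophage change can be followed within kinds of macrophage. Lipid-associated macrophage (LAM)-like nuclei, with markers such as Trem2 and Gpnmb, were 1.32% to 6.14% of macrophage-like nuclei in chow libraries and CCH and 63.6% to 92.2% in libraries with past obesity. Perivascular macrophage (PVM)-like nuclei were 73.2% to 85.7% and 6.80% to 29.0%. In the 6 libraries with at least 50 nuclei of each, Runx2 was higher in LAM-like than in PVM-like nuclei, at 165 and 17.0 CPM in CCH, 151 and 46.6 CPM in H and 164 and 28.3 CPM in HC. In HH the levels were 138 and 67.0 CPM, in HHC 155 and 76.7 CPM and in HCH 128 and 43.0 CPM. The mean difference was 1.72 ± 0.78 on the log2 scale (SD, n = 6 libraries, higher in 6 of 6, exact permutation p = 0.0312, the smallest that 6 pairs allow, adjusted p = 0.0528), which missed the threshold. Runx1 differed by 0.34 ± 0.15 and was also higher in 6 of 6 (exact permutation p = 0.0312, adjusted p = 0.0528), and Cbfb by −0.07 ± 0.09 (exact permutation p = 0.125, adjusted p = 0.180).

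Within PVM-like nuclei alone, Runx2 was at 13.6 CPM in C, 17.8 CPM in CC, 22.2 CPM in CCC and 17.0 CPM in CCH. It was at 28.3 CPM in HC and at 43.0 to 76.7 CPM in the other libraries with past obesity. The ratio was 3.43 for H to C, 3.77 for HH to CC, 3.46 for HHC to CCC and 2.52 for HCH to CCH, and 1.59 for HC to CC with an interval that held 1 (log2 −0.26 to 1.60). In every library with past obesity PVM-like nuclei were outnumbered by LAM-like ones, whereas in chow libraries and CCH they were the more frequent kind. The part of LAM RNA, or of nuclei assigned to the wrong kind, in the Runx2 values of PVM-like nuclei was not tested. Runx1 in PVM-like nuclei stayed between 0.806 and 1.498 times its control library. Within LAM-like nuclei, Runx2 in HH was 0.913 times H and in HHC 0.947 times HC, the latter with an interval that held 1. Chow libraries had 6 to 28 LAM-like nuclei, too few for a comparison.

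**Figure D4:**
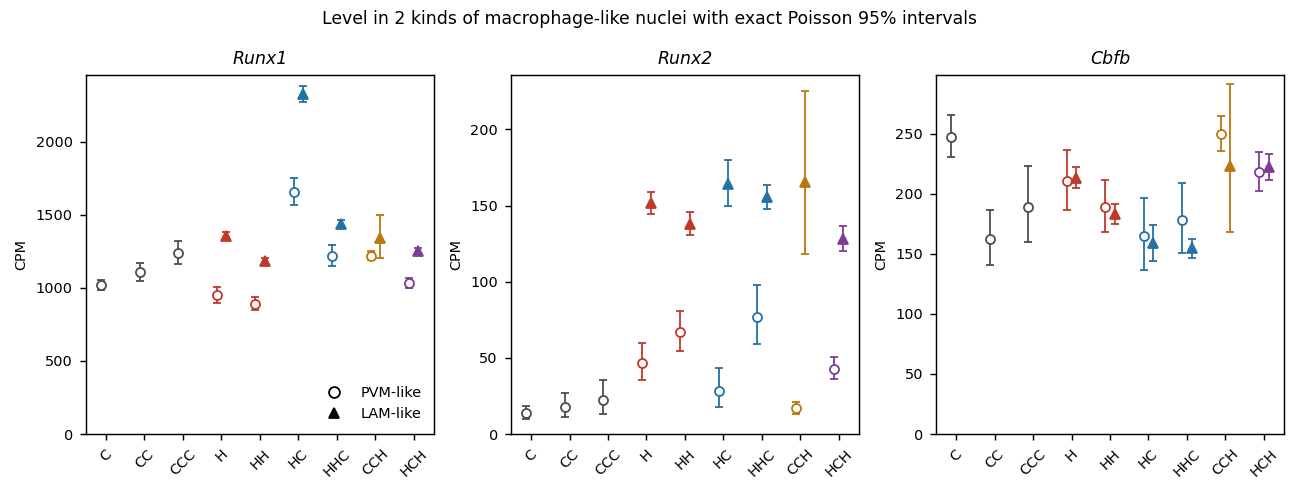
CPM of Runx1, Runx2 and Cbfb per library in PVM-like (open circles) and LAM-like (filled triangles) nuclei with exact Poisson 95% intervals, for kinds with at least 50 nuclei, coloured by diet state as in the plot of levels by library. Runx2 in LAM-like nuclei lies at 128 to 165 CPM in 6 libraries, above PVM-like nuclei of the same library each time, whereas Cbfb of both kinds overlaps.

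RNA of macrophages was also present in nuclei of other classes and moved with diet. In adipocyte-like nuclei the 15 macrophage markers, all detected in every library, summed to 194 CPM in C, 208 CPM in CCH, 420 CPM in CC, 527 CPM in HC and 840 CPM in CCC, and to 880 CPM in H, 918 CPM in HCH, 1154 CPM in HH and 1289 CPM in HHC. This was 1.02% to 10.5% of their level in macrophage-like nuclei of the same library. Runx1 in adipocyte-like nuclei was 2.83% to 12.7% of its macrophage level, above the marker percentage in 6 libraries and below it in H, HH and HCH. In progenitor-like nuclei the markers were at 2.25% to 16.7% and Runx1 at 2.13% to 16.4%, above the marker percentage in 6 of 9 libraries. Runx1 and the markers thus covered similar ranges in both classes. The part of macrophage RNA in the Runx1 levels was not tested, and nuclei without macrophage markers are described below.

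Runx2 did not share that pattern. It was at 40.5% to 166% of its macrophage level in adipocyte-like nuclei and at 79.7% to 155% in progenitor-like nuclei, above the marker percentage in 9 of 9 libraries of both. In macrophage-like nuclei there were 0.0174 to 0.113 Runx2 UMIs per Runx1 UMI, against 0.379 to 2.06 in adipocyte-like and 0.385 to 1.39 in progenitor-like nuclei. At the macrophage ratio of the same library, the Runx1 UMIs of adipocyte-like nuclei correspond to 3.43 Runx2 UMIs in H, where 66 were counted, and to 14.7 in HH, where 220 were counted. In progenitor-like nuclei of H they correspond to 124, where 974 were counted. The part of macrophage RNA in the Runx2 levels was not tested.

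Nuclei without a single UMI of the 15 macrophage markers were then taken alone. In progenitor-like nuclei these were 0.594% to 2.43% of nuclei in H, HH, HHC and HCH, 10.9% in HC and 20.7% to 44.0% in the others. Runx2 again rose in obesity, by 1.92 (SE 0.51, edgeR, adjusted p = 0.0120), and after weight loss, by 2.31 (SE 0.51, edgeR, adjusted p = 0.0115). Of 9300 genes in that fit, 361 rose and 210 fell in obesity, and 34 rose and 11 fell after weight loss. The calls of Runx2 rest on few UMIs of it, 15 in H, 11 in HH, 29 in HC and 10 in HHC. C, CC and CCC had 28, 10 and 25. HHC had 13 such nuclei. Runx1 rose after weight loss by 2.08 (SE 0.41, edgeR, adjusted p = 0.00279), and its log2 change in obesity was 1.33 (SE 0.44, edgeR, adjusted p = 0.0591). It had 23 UMIs in H, 12 in HH, 89 in HC and 5 in HHC, and 79, 13 and 49 in C, CC and CCC. Its ratio of HC to CC was 6.18. That of HHC to CCC was 2.88, with an interval that held 1 (log2 −0.16 to 2.85). The ratio of HCH to CCH there was 1.13 for Runx1, from 4 and 50 UMIs (log2 interval −1.75 to 1.63), and 3.76 for Runx2, from 13 and 49 UMIs (0.90 to 2.81). In adipocyte-like nuclei only 4 to 7 such nuclei remained in H, HH, HHC and HCH. Runx2 then had 2 to 4 UMIs in each of them, and its log2 change in obesity was 1.32 (SE 0.87, edgeR, adjusted p = 0.399), so the call was lost. Of 10667 genes in that fit, 102 rose and 232 fell in obesity. Markers of T or NK cells, the class with the highest median Runx2 level of the 10 ordered, summed to 9.14 to 71.0 CPM in adipocyte-like nuclei against 4879 to 8932 CPM in their own class. In adipocyte-like nuclei they were at 12.1 CPM in H and 16.6 CPM in HH, and at 10.4, 25.8 and 56.2 CPM in C, CC and CCC.

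**Figure D5:**
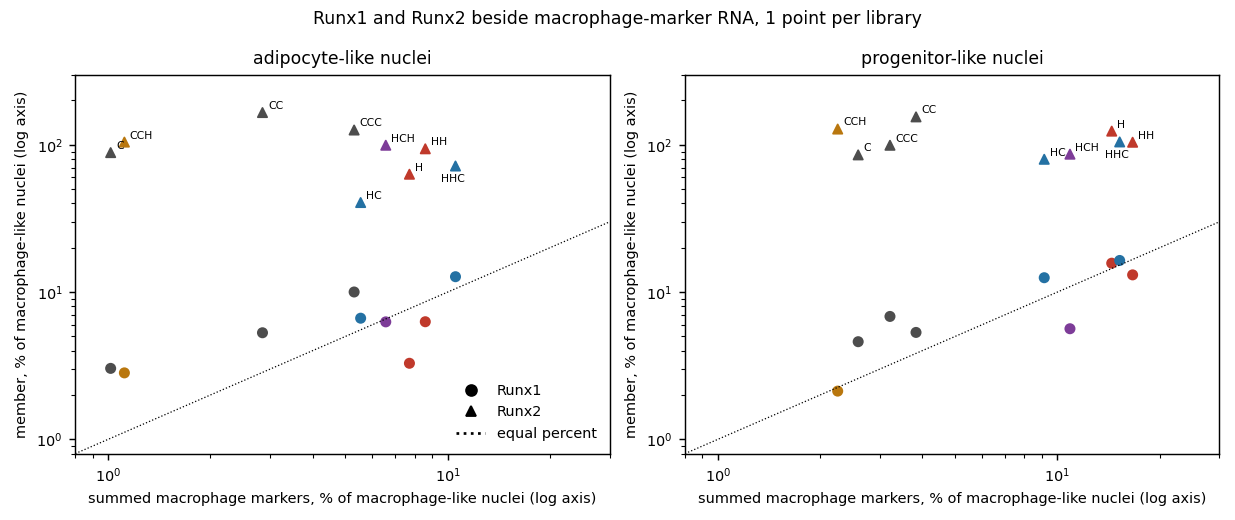
Level of Runx1 (circles) and Runx2 (triangles) in adipocyte-like and progenitor-like nuclei, against the summed macrophage markers, each as a percentage of the level in macrophage-like nuclei of the same library, on log axes, with 1 point per library coloured by diet state and the line of equal percentages dotted. Runx1 lies on both sides of the line, at 2.13% to 16.4%, and Runx2 well above it, at 40.5% to 166%. In adipocyte-like nuclei Runx1 was at 3.03% with the markers at 1.02% in C, and at 3.28% with 7.71% in H.

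Supt3, which overlaps Runx2 on the other strand, was at 300, 222 and 202 CPM in adipocyte-like nuclei of C, CC and CCC, at 198 and 190 CPM in H and HH, at 266 and 177 CPM in HC and HHC, and at 301 and 255 CPM in CCH and HCH. Its part in the Runx2 counts was not tested. The sequencing sets named in the labels divide the libraries, with CC, CCC, HC and HHC in one and the others in the other. Within a set, Runx2 in adipocyte-like nuclei was 4.57 times C in H and 6.24 times C in HH, where C was 18 and HH 31 weeks old. With set as a term the log2 change in obesity was 2.07 (SE 0.39, edgeR, adjusted p = 0.0141). Only the chow state spans both sets, so the term rests on C against CC and CCC. These also differ in age and chow, so the term cannot separate set from either. The rises of Runx1 and Runx2 in progenitor-like nuclei and of Runx2 in macrophage-like nuclei were also called with that term.

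Among other classes, values of Runx2 in endothelial-like nuclei were 2.13 times C in H, 3.10 times CC in HH and 2.14 times CCC in HHC, but 1.38 times CCH in HCH with an interval that held 1. HC held 34.3 CPM and CC 20.3 CPM there, with overlapping intervals. In mesothelial-like nuclei the ratios were 3.03, 3.23 and 2.83, and 2.31 for HCH to CCH. Macrophage markers moved with these values, from 885 CPM in C to 2614 CPM in H in endothelial-like nuclei and from 477 to 1645 CPM in mesothelial-like nuclei. As a percentage of the macrophage level, Runx2 was above the markers in 9 of 9 libraries of both classes. In endothelial-like nuclei it was at 82.6% in C, where the markers were at 4.64%, but at 27.5% in H, where they were at 22.9%. In mesothelial-like nuclei it was at 35.1% and the markers at 2.502% in C, and at 16.6% and 14.4% in H. The part of macrophage RNA in these Runx2 values was not tested. In T or NK cell-like nuclei the ratio was 1.98 for H to C, 1.10 for HHC to CCC and 0.936 for HCH to CCH, the last 2 with intervals that held 1. It was 3.76 for HH to CC, where CC had 11 UMIs and 96.2 CPM (48.0 to 172). HH held 362 CPM (308 to 422) and C, of the same sequencing set, 258 CPM (187 to 346), with overlapping intervals, as had HC at 180 CPM and CC. Runx3 in T or NK cell-like nuclei was 4.62 times C in H (log2 ratio 2.21, interval 1.10 to 3.46) and 1.61 times CC in HH with an interval that held 1. It was 0.884 times CCC in HHC and 1.28 times CCH in HCH, both with intervals that held 1. C held the lowest and H the highest level of the 9 libraries, at 52.8 and 244 CPM. These classes were not fitted by diet state, and ratios were not taken in further classes. Over 7 libraries, Runx2 in B cell-like nuclei was highest in CCC (173 CPM, 24 UMIs) and lowest in H (24.9 CPM, 3 UMIs). Over 8 libraries, Runx2 in lymphatic endothelial-like nuclei was lowest in C (11.3 CPM, 4 UMIs) and highest in H (72.0 CPM, 13 UMIs). HH and HC lay below CC there.

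Partners and targets of the family were taken from 6 lists with 67 genes, of which 52 were tested in adipocyte-like, 55 in macrophage-like and 56 in progenitor-like nuclei. In obesity 4 rose and 2 fell in adipocyte-like nuclei (7.69% and 3.85%, against 8.65% and 4.61% of all genes). In macrophage-like nuclei 3 rose and 15 fell (5.45% and 27.3%, against 16.3% and 14.5%), and in progenitor-like nuclei 5 rose and 4 fell (8.93% and 7.14%, against 10.1% and 6.98%). The median log2 change of the listed genes in obesity was −0.57, −0.43 and −0.32, against −0.06, 0.01 and −0.02 over all genes. After weight loss, 0 of 52, 2 of 55 and 1 of 56 were called. The calls in adipocyte-like nuclei in obesity depended on single libraries, and without CC 255 of 14667 genes rose and 58 fell. Values of the listed genes with a library left out are not given here.

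Of 14 corepressors, which Runx proteins recruit to silence genes, 5 fell in macrophage-like nuclei in obesity, against 14.5% of all genes. Cbfa2t3, an ETO family corepressor, was at 92.8 to 169 CPM in chow libraries and at 34.7 and 33.4 CPM in H and HH (log2 change −2.07, SE 0.31, edgeR, adjusted p = 0.00220). The others named by rank were Tle3 (−1.28), Runx1t1 (−2.00) and Tle1 (−0.79); Tle1 and Tle3 are Groucho proteins. Tle1 was at 51.8, 61.3 and 57.6 CPM in macrophage-like nuclei of C, CC and CCC and at 302, 108 and 91.1 CPM in adipocyte-like nuclei, and Tle3 was likewise higher in adipocyte-like nuclei of these libraries. The adipocyte markers given below were lower in macrophage-like nuclei in obesity, and their part in these falls was not tested. Runx1t1 was at 11.4, 24.0 and 26.4 CPM in macrophage-like nuclei of C, CC and CCC. In progenitor-like nuclei of these libraries it was at 220 to 277 CPM, and the part of progenitor RNA in its fall was not tested. In progenitor-like nuclei Tle2 rose (1.59) while Tle1 (−0.89) and Tle3 (−1.11) fell. In adipocyte-like nuclei the histone deacetylase Hdac4 fell (−1.41, adjusted p = 0.0208, edgeR). Of the 8 acetyltransferases and other modifying enzymes, Kat6b, a lysine acetyltransferase, fell in macrophage-like nuclei (−0.62, adjusted p = 0.0476, edgeR) and none was called in the other classes. Of 6 ubiquitin ligases, Smurf1 fell in macrophage-like nuclei (−0.95) and Nedd4l rose in adipocyte-like nuclei (1.48, adjusted p = 0.0270, edgeR). In C, CC and CCC, Kat6b was at 182, 224 and 205 CPM in macrophage-like and 250, 318 and 292 CPM in adipocyte-like nuclei. Smurf1 was at 143, 140 and 155 CPM in macrophage-like and 213, 177 and 191 CPM in progenitor-like nuclei of these libraries. The part of RNA of other classes in the falls of Kat6b and Smurf1 was not tested.

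Of 16 DNA-binding partners, 6 fell in macrophage-like nuclei in obesity, again against 14.5% of all genes, led by Tead1 (−4.37), Yap1 (−3.58), Wwtr1 (−3.57) and Smad3 (−1.79), which act in Hippo and TGF-beta signalling. Tead1 was at 84.7, 248 and 126 CPM in macrophage-like nuclei of C, CC and CCC and at 5.97 and 9.76 CPM in H and HH, but at 1779, 1001 and 1022 CPM in adipocyte-like nuclei of the same chow libraries. The 14 adipocyte markers in macrophage-like nuclei summed to 1670, 5432 and 2344 CPM in C, CC and CCC and to 794 and 989 CPM in H and HH, and their part in these falls was not tested. In adipocyte-like nuclei Cebpa, a driver of adipocyte differentiation, rose (1.58, adjusted p = 0.0461, edgeR), as did Twist1 (1.52), and Smad1 fell (−1.56). In progenitor-like nuclei Twist2 fell (−0.98).

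Of 9 targets known from bone and cartilage, 3, 5 and 6 were tested in adipocyte-like, macrophage-like and progenitor-like nuclei, of which 1, 3 and 3 rose in obesity, against 8.65%, 16.3% and 10.1% of all genes. Spp1, which encodes osteopontin and is a classical Runx2 target but also a macrophage gene, rose in obesity in adipocyte-like (4.08), macrophage-like (5.26) and progenitor-like nuclei (4.70), and in macrophage-like nuclei after weight loss (4.19, adjusted p = 0.0311, edgeR). In macrophage-like nuclei it was at 4.05, 0.705 and 2.83 CPM in C, CC and CCC, at 135 CPM in H, 112 CPM in HH and 104 CPM in HHC, but at 7.43 CPM in HC. Col1a1, a chain of type I collagen, rose in macrophage-like and progenitor-like nuclei (2.41 in both). It was at 10.4 to 14.1 CPM in macrophage-like nuclei of chow libraries and at 64.8 and 70.3 CPM in H and HH. In progenitor-like nuclei, where it was higher, it was at 34.3 to 81.8 CPM in chow libraries and at 425 and 321 CPM in H and HH, and the part of progenitor RNA in the macrophage values was not tested. The others counted as rises were Mmp13 in macrophage-like and Col10a1 in progenitor-like nuclei. Both had 0 or 1 UMI in each chow library and passed the filter only through libraries where they were higher, so a rise was the only call they could get, and these counts are no support for the list. Vegfa, the vascular growth factor, went the other way and fell in macrophage-like (−2.14) and progenitor-like nuclei (−1.48) in obesity and in both after weight loss (−2.11 and −1.57). Its level was 62.5, 117 and 64.2 CPM in macrophage-like nuclei of C, CC and CCC and 21.4 and 17.9 CPM in H and HH, but 651, 388 and 401 CPM in adipocyte-like nuclei of the chow libraries. The adipocyte markers were lower in obesity also in progenitor-like nuclei, at 1172 to 4588 CPM in chow libraries and 443 and 531 CPM in H and HH, and their part in the falls of Vegfa was not tested. The bone genes Ibsp, Bglap and Sp7, also in the list, passed the filter on low counts in no class, and Alpl passed it in progenitor-like nuclei without a call.

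Of 14 targets in blood and immune cells, 5 or 6 passed the filter in each class. Csf1r, the macrophage growth factor receptor, rose in progenitor-like nuclei in obesity (1.76, adjusted p = 0.0128, edgeR), where the macrophage markers were also higher, at 1648 CPM in H and 2236 CPM in HH against 493 to 565 CPM in chow libraries. Zbtb7b, a regulator of T helper cells, fell in macrophage-like nuclei (−0.91, adjusted p = 0.0427, edgeR). It was at 17.7, 31.7 and 22.7 CPM there in C, CC and CCC. In adipocyte-like nuclei of these libraries it was at 33.3, 56.6 and 31.6 CPM, and the part of adipocyte RNA in its fall was not tested.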

How the data were processed

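Deposited matrices hold raw counts (UMIs per gene and barcode). Per the labels and methods, these were produced by the authors using Cell Ranger 6.1.2 and the 10x mouse reference for mm10 (GRCm38), introns included; Seurat 4.1.0 was used later by the study and did not alter them. Barcodes were called as cells upstream, and the doublet removal of the study was not in the files. Depth was 22599619 to 66615262 UMIs per library; intervals cover counting error only.

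Nuclei within the gene and UMI limits of the study were gated into 14 classes by detected markers above the free-RNA level of their library. Minimum marker numbers were set after marker counts were seen, without looking at the Runx family. No doublet caller was run; nuclei of mixed markers were left out. Gate names and per-library Leiden clusters (leidenalg 0.10.2, igraph 0.11.9) gave the same name for 90.5% to 97.7% of nuclei named by both. Each cluster was named by the leading class of its gated nuclei, so this agreement is partly built in. Nuclei that passed no gate were 7.5% to 27.8% of a library. Nuclei at the minimum number of markers were 2.43% to 13.5% of adipocyte-like, 4.16% to 21.1% of macrophage-like and 4.15% to 19.5% of progenitor-like nuclei. LAM-like and PVM-like nuclei carried at least 3 markers of their list. Totals were taken without Malat1 and mitochondrial genes.

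Summed counts were fitted with edgeR 4.0.16 (glmQLFTest, TMM, filterByExpr, R 4.3.3) over all 9 libraries in 5 diet states. The fit was also run on simulated data, with an outcome that is not given here. DESeq2 1.42.0 was an alternative. Standard errors are the log2 change over the root of F. Classes were compared on log2(CPM + 5), paired within library. A library at 0 UMIs was set to 3 UMIs when 2-fold differences were counted, among genes with at least 10 UMIs in both libraries together. Annotation was GENCODE vM21, which matched 32235 of 32285 genes. Named besides the family are up to 4 called genes per list and class by smallest p, the 5 most alike genes per member, and Supt3 as a neighbour; the marker examples and Ibsp, Bglap, Sp7 and Alpl were named after their values were seen. The members and lists were chosen with earlier results of these data known. Alternatives were the scaling, filter, tool, gate, clusters, sequencing set, pseudocount, control library and each library left out.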

Additional observations from a re-analysis of the deposited data

Results flagged for a closer look

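Cbfb in progenitor-like nuclei had opposite directions after 12 and 25 weeks of HFD: its log2 ratio was −0.37 for H to C and 0.25 for HH to CC, each with a counting interval that left out 0. Against C, the chow library of its own sequencing set, HH was at a log2 ratio of −0.69 (interval −0.83 to −0.55), the same direction as H. C was 18, CC 26 and HH 31 weeks old. CCC, in the set of CC, held 116 CPM and HH 118 CPM. The difference between these ratios was not tested. H, HH and C share a sequencing set and CC does not, and C held the highest Cbfb level in these nuclei among the 9 libraries (190 CPM) and CC the lowest (99.1 CPM).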

How the results depend on the processing

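In adipocyte-like nuclei, the 1 member called in obesity became 0 in nuclei without macrophage-marker UMIs and 0 to 1 when single libraries were left out (0 without CC, H or HH); after weight loss the count was 0 to 0 in those fits and 2 (Runx1 and Runx2) with no filter on low counts. In macrophage-like nuclei after weight loss, 2 members instead of 1 were called with no filter and with no upper gene limit, Runx1 being the addition; leaving out libraries gave 1 to 1. In progenitor-like nuclei in obesity, 1 instead of 2 was called in nuclei without macrophage-marker UMIs, and 1 to 2 when single libraries were left out (1 without H). With a stricter gate, 18 of 41 instead of 29 of 46 class pairs were told apart for Runx1. Of the class pairs told apart, 0 reversed direction in any alternative that measured them. Clusters measured 88 of these pairs, the stricter gate 100 and each of the other alternatives for class pairs 103. The ratio of Runx3 in HH to CC in macrophage-like nuclei turned from a log2 value of −1.16 to 0.34 when clusters replaced the gate. DESeq2, other size factors, the sequencing set as a term, clusters, mixed nuclei kept and the stricter gate changed no member's call. The cause of each change was not tested. Nuclei without macrophage-marker UMIs were few in H, HH, HHC and HCH. Over all genes, the calls after weight loss moved from 0 up and 0 down to 440 and 332 with no filter, 106 and 62 in DESeq2 and 20 and 64 with the set term in adipocyte-like nuclei. In macrophage-like nuclei they moved from 665 and 382 to 1305 and 851 with no filter, 907 and 715 in DESeq2 and 1071 and 700 with no upper gene limit. In progenitor-like nuclei they moved from 183 and 69 to 893 and 555 with no filter, 326 and 189 in DESeq2 and 59 and 41 with the set term. With that term the calls in obesity moved from 2720 and 2427 to 1254 and 1447 in macrophage-like and from 1702 and 1175 to 345 and 363 in progenitor-like nuclei. In adipocyte-like nuclei the calls in obesity moved from 1321 and 704 to 255 and 58 without CC, and to 1625 and 1380 without C. Counts from fits that leave 1 obese or 1 weight-loss library are not given. Diet states were not compared in pairs, because the labels give no replicate numbers that diet groups share, with 1 library in each group. Depth limits Runx3 outside lymphoid nuclei and every adipocyte-like value of H.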
